A study of Mus musculus with 12 samples.

Results

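The thymic γδ T cells of Gfi1 KO mice were compared with those of WT mice across all genes that could be tested. The cells were the members of 4 demultiplexed single-cell libraries, 2 labelled KO and 2 labelled WT, with at least 500 UMIs (unique molecular identifiers, 1 for each counted transcript) and at most 20% mitochondrial counts. This kept 29207 thymic γδ T cells of the 96911 cells kept in all 12 libraries. The WT libraries held 6817 and 7968 cells with 58933385 and 71663962 UMIs, and the KO libraries held 6795 and 7627 cells with 42352748 and 45370986 UMIs. The median cell had 6853 and 6850 UMIs in the WT libraries and 5742 and 5665 in the KO libraries, so WT cells were the deeper ones. The other libraries were splenic γδ T cells (38474 cells) and thymic cells of the DN1 to DN3 stages sorted together (29230 cells), the precursors of T cells that bear neither CD4 nor CD8.

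Both genotypes were adult C57BL6/J mice, and the KO mice carried a germline deletion of Gfi1, which therefore was missing from every cell of the animal and not from γδ T cells alone. Thymus suspensions of both genotypes had been depleted of B, myeloid and NK cells and in part of CD8+ cells with antibody-coated magnetic beads, marked with 1 hashtag antibody per genotype, and sorted as CD4-negative CD8-negative γδ T cells. One KO and one WT library of the same number came from the same pool and droplet run. The thymic γδ T and DN1-DN3 cells came from the same mice. The sources used here do not say whether the 2 libraries of a genotype came from separate animals. The p-values thus measure only the spread between libraries of the same sort and genotype. In the main fit it was estimated over all 12 libraries, and it may be technical.

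γδ T cells branch off in the thymus from DN precursors that have rearranged a γ and a δ chain. Newly made γδ thymocytes carry CD24 and the homing receptor CCR9 and still express factors of uncommitted T cells such as Tcf7, Lef1 and Sox4. They mature either towards γδT1 cells, which keep CD27, respond to IL-2 family cytokines and make interferon γ, or towards γδT17 cells, which switch on Maf and Blk, bear IL-23 and IL-1 receptors and make IL-17. A further type expresses PLZF, encoded by Zbtb16, and makes IL-4. The fetal thymus makes γδ T cells in waves, and one of them pairs the Trgv6 segment with the Trdv4 segment and is known for IL-17. GFI1 is a zinc-finger repressor that works with the demethylase encoded by Kdm1a, with CoREST proteins and with histone deacetylases.

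Gfi1 (ENSMUSG00000029275) was counted in every library, with 16.5 and 17.6 CPM (UMIs of the gene per 1000000 UMIs of the library) in the libraries labelled WT and 28.9 and 19.2 CPM in those labelled KO. Its level was thus not lower with the label KO, and the log2 difference was 0.62 (SE 0.20, adjusted p = 0.0251). The call was lost without KO library 1 (log2 0.34, adjusted p = 0.214), without WT library 1 (adjusted p = 0.125) and without WT library 2 (adjusted p = 0.0841), and also without cells with markers of other cell types (log2 0.24, adjusted p = 0.403). The 3′ tags need not lie in the deleted part of the gene, which is not given in the sources used here, so they check nothing about the label.

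The defining markers of γδ T cells were high throughout. The summed level of 7 such genes, among them Trdc and Cd3e, was 4759 and 4763 CPM with the label WT and 7502 and 8163 CPM with the label KO. Markers of αβ thymocytes summed to 3175 and 3262 CPM in WT and to 1531 and 1303 CPM in KO, almost all of it from the constant genes Trbc1 and Trbc2. Markers of NK cells and ILC summed to 236 and 227 CPM in WT and to 94.6 and 62.1 CPM in KO, mostly from Nkg7, while Ncr1 had at most 0.0140 CPM. Those of B cells summed to 158 and 157 CPM in WT and to 83.3 and 192 CPM in KO, where KO library 2 had 127 CPM of the light chain gene Igkc alone. Myeloid markers summed to at most 2.89 CPM and erythroid ones to at most 5.78 CPM, while those of early DN progenitors were between 153 and 215 CPM and those of thymic stroma between 149 and 265 CPM, mostly from Pecam1, with Foxn1 and Krt5 at most at 0.0661 CPM. Cells with Xist and no Y-linked UMI made up 44.7% to 65.8% of a library and those with a Y-linked UMI and no Xist 20.3% to 37.9%, so that each library mixed both sexes. The part of these differences in the results was not tested, except where values without such cells are given. The filter on markers of other cell types removed cells with at least 2 UMIs of the B cell, myeloid, erythroid or stromal markers. It also removed those with at least 2 UMIs of Trac, Cd4 and Cd8b1 together. Its lists include Pecam1, Ighm, Cd79b and Epcam, so it need not remove other cell types alone. Without these genes the cells marked as non-T cells went from 64.5% and 65.3% to 0.411% and 0.515% in WT. In KO they went from 32.3% and 25.5% to 0.191% and 0.157%. What the calls lost with this filter owe to other cell types was not tested.

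The libraries labelled KO and WT differed at 7423 of 14921 genes (49.7%), of which 3887 were higher (26.1%) and 3536 lower (23.7%) in KO. All calls are from the quasi-likelihood F test of edgeR, with p-values adjusted by Benjamini and Hochberg over all genes and a threshold of 0.05. Of the called genes 1818 were more than 2-fold higher and 1810 more than 2-fold lower, while the median log2 difference over all genes was −0.00. Very large changes were mostly gains, with 596 genes over 8-fold higher against 161 over 8-fold lower. Groups did not overlap at 80.8% of the genes, so a lack of overlap alone says little here. Counts of list members given below stand beside the 26.1% higher and 23.7% lower of all genes. Among cells with Xist and no Y-linked UMI the count was 2570 genes, and among cells with a Y-linked UMI and no Xist 4533. The direction was the same as in all cells at 7034 of the 7034 called genes that could be tested in the first class and at 6715 of 6718 in the second. Of 113 called genes that were followed one by one, 41 were not called in the first class, 20 in the second and 18 in both, namely Btla, Ccr6, Ccr7, Ccr9, Cd27, Cd28, Gfi1, Id3, Il17f, Il4, Il6st, Klra5, Lck, Nr4a1, Rag1, Sh2d1a, Slamf6 and Tcf7. Since the values are sums over all cells of a library, a lower share of cells with a transcript and less transcript per cell cannot be told apart in them.

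Where called genes averaged 20 CPM or more and moved one way in both pools, those that gained most by ratio were Tmeff2, Zbtb7c, Fat3, Ablim3, Myo16, Igsf11, Il17a, Dlgap1, Slc15a3 and Arnt2, in the order of their log2 difference. Tmeff2, a membrane protein with follistatin domains, measured 0.662 and 0.321 CPM in WT and 145 and 83.0 CPM in KO, a log2 difference of 8.0 (SE 0.81, adjusted p = 4.12e-05). Fat3, a giant cadherin, measured 0.543 and 0.893 CPM in WT and 82.9 and 95.4 CPM in KO, a log2 difference of 7.06 (SE 0.22, adjusted p = 5.91e-08). Under the same conditions those that lost most were Angpt1, Mctp1, Hmga2, Mpp4, Nrgn, Lef1os1, P2rx7, Lrmda, BC035044 and Dclk2. Angpt1, a ligand of the vascular receptor Tie2, measured 117 and 112 CPM in WT and 8.81 and 5.05 CPM in KO, a log2 difference of −3.93 (SE 0.33, adjusted p = 1.54e-05). Hmga2, a chromatin protein of fetal and progenitor cells, measured 74.5 and 61.3 CPM in WT and 6.99 and 4.76 CPM in KO, a log2 difference of −3.41 (SE 0.27, adjusted p = 1.04e-05). On the scale of absolute level, Clnk, an adaptor of antigen receptors, went from 14.1 and 17.6 CPM to 1032 and 1286 CPM, and H2az1, a histone variant, from 1706 and 1929 CPM to 679.8 and 648 CPM.

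**Figure D1:**
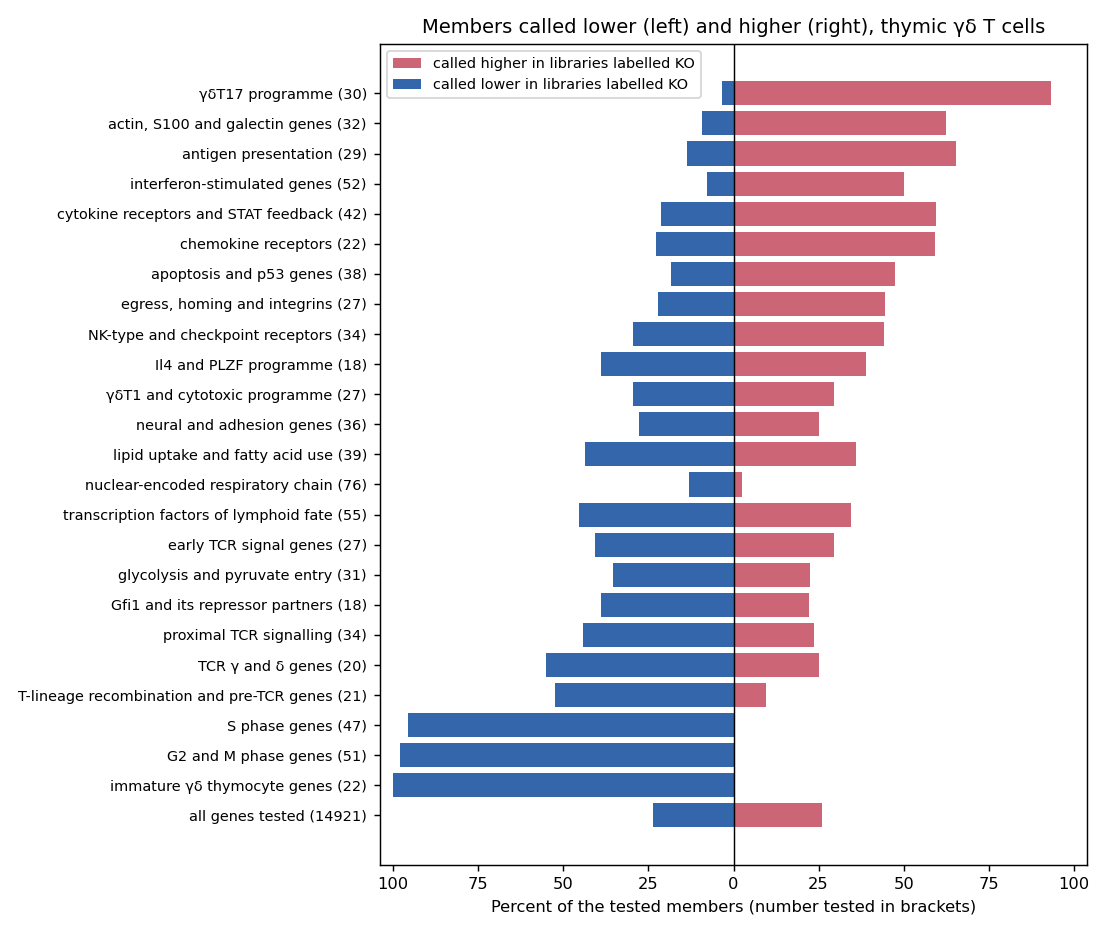
Bars give, for each of 24 lists of genes by function, the percent of the tested members called higher in KO (to the right) and called lower (to the left), with the number tested in brackets; the lowest bar gives all genes tested, 26.1% higher and 23.7% lower. The γδT17 list reaches furthest to the right with 28 of 30 members, and the immature, S phase and G2 and M lists lie to the left with no member higher.

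The segments of the T cell receptor itself differed in usage. Of 20 γ and δ chain genes tested, 5 rose (Trdv4, Trgv6, Trgv5, Trgc1, Trdc), 11 fell and 4 were not called, and the median log2 difference was −0.81. Trdv4 stood at 6.79 and 6.67 CPM in WT and at 413 and 456 CPM in KO, a log2 difference of 6.14 (SE 0.15, adjusted p = 1.31e-08). Trgv6 stood at 3.73 and 3.68 CPM in WT and at 151 and 165 CPM in KO, a log2 difference of 5.54 (SE 0.14, adjusted p = 1.31e-08). These are the segments of the fetal pair named above. Trgc1, the constant gene that Trgv6 joins, rose from 402 ± 8.06 to 1021 ± 47.0 CPM (SD, n = 2), and Trgc2, the constant gene of another γ cluster, fell from 523 ± 18.6 to 278 ± 50.7 CPM. Trgv4 fell by 1.08 on the log2 scale (SE 0.16, adjusted p = 0.000303), from 43.0 and 43.9 CPM to 22.9 and 15.03 CPM. Trgv1 was lower by less, with 87.9 and 80.8 CPM in WT and 60.8 and 27.6 CPM in KO (log2 −0.83, SE 0.28, adjusted p = 0.0326). That call was lost without KO library 2 (log2 −0.39, adjusted p = 0.145), without WT library 1 (adjusted p = 0.129) and without WT library 2 (adjusted p = 0.0813), and without KO library 1 the difference was −1.45. It was also lost in the fit of the 4 libraries alone without a block and with no filter on low counts. The V segments resemble each other, so reads may be split among them and each V value is uncertain to that extent.

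**Figure D2:**
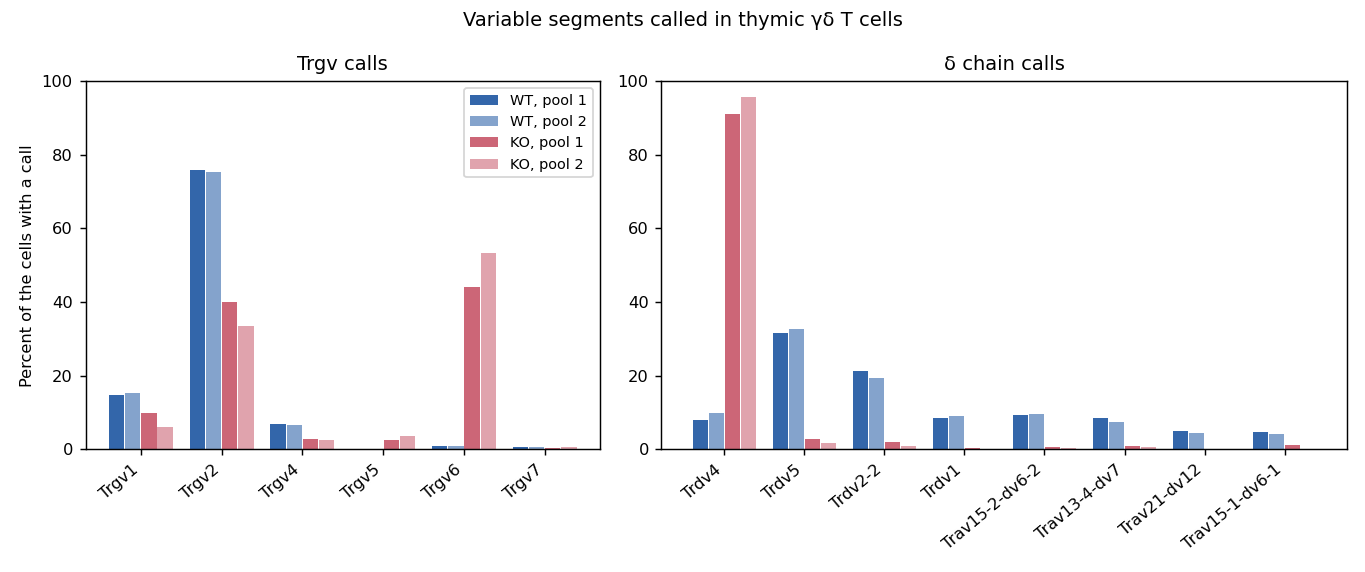
Percent of the cells with a call (vertical axis) assigned to each γ variable segment (left) and to each of 8 δ segments (right), with 1 bar per library. Trdv4 takes 91.0% and 95.8% of the δ calls in KO against 8.08% and 9.85% in WT, and Trgv6 takes 44.1% and 53.3% of the γ calls against 0.840% and 0.991%.

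The same was seen cell by cell. Each cell was assigned the V segment with the most UMIs, and a cell in which no segment led had none. Trdv4 was called in 178 of the 2202 and 244 of the 2476 cells with a δ call in WT, which is 8.08% and 9.85%. In KO it was called in 4127 and 5588 cells, which is 91.0% and 95.8% of the δ calls. The WT libraries held 6817 and 7968 cells and the KO libraries 6795 and 7627, with or without a call. A δ call was thus made in a larger share of the cells in KO, with 4535 calls in KO library 1. Shares of the calls are therefore not shares of all cells. The other δ segments took smaller shares. Trdv5 went from 31.7% and 32.7% to 2.87% and 1.87%, Trdv2-2 from 21.2% and 19.4% to 1.90% and 0.874%, and Trdv1 from 8.63% and 9.17% to 0.507% and 0.171%. Among γ calls Trgv6 went from 0.840% and 0.991% to 44.1% and 53.3%, and Trgv2 from 75.8% and 75.4% to 40.05% and 33.6%. Trgv5, the segment of the γδ T cells of skin, went from 0.102% and 0.174% to 2.52% and 3.76%. Trgv7 overlapped between the groups, with 0.717% and 0.556% in WT and 0.413% and 0.574% in KO. With 2 libraries a group the smallest p of an exact permutation test is 0.33, so these shares cannot pass a test on their own.

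Of the Trdv4-called cells with a call for Trgv1, Trgv2, Trgv4 or Trgv6, 9.85% and 12.4% had Trgv6 in WT and 66.0% and 66.1% in KO. Trgv2 was the partner in 69.7% and 69.2% of them in WT and in 29.0% and 28.1% in KO. In cells called for another δ segment Trgv6 was rare in both groups, with 0.392% and 0.419% in WT and 1.37% and 2.91% in KO, and Trgv2 was the usual partner, with 78.5% and 79.4% in WT and 74.0% and 77.3% in KO. In WT the Trdv4-called cells thus lay closer to the cells with another δ call than to the KO Trdv4-called cells for Trgv2, and Trgv1 was the partner in 15.2% and 13.6% of them against 14.0% and 14.2% of the others. How many of the WT Trdv4 calls were false was not tested. A partner here is the leading γ transcript of the same cell, which need not be the chain on its surface. The study states that 3′ reads capture the variable segments poorly.

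The γδT17 programme was higher across nearly the whole list. Of its 30 members 28 rose, Scart2 fell and Sox13 was not called, and the median log2 difference was 3.93. The study describes these cells by several members, so the count is no independent evidence of their direction. Il17a, the signature cytokine, measured 0.916 and 1.19 CPM in WT and 95.7 and 93.4 CPM in KO, a log2 difference of 6.60 (SE 0.47, adjusted p = 7.82e-06). Its neighbour Il17f measured 1.05 and 0.991 CPM in WT and 2.27 and 1.45 CPM in KO, a log2 difference of 0.98 (SE 0.32, adjusted p = 0.0263). KO libraries were thus far above WT for Il17a and barely above for Il17f. The call of Il17f was lost without KO library 1 (adjusted p = 0.176), WT library 1 (adjusted p = 0.0963) or WT library 2 (adjusted p = 0.133), and without cells that carried markers of other cell types (log2 −0.51, adjusted p = 0.392). That filter removed 68.3% and 68.6% of the WT cells and 36.3% and 29.7% of the KO cells. A narrower list of markers, chosen after seeing the data, left out Ighm, Cd79b, Pecam1 and Epcam. With it the filter removed 14.5% and 13.5% of the WT cells and 6.61% and 5.74% of the KO cells. The log2 difference was then 0.98 (adjusted p = 0.0230). Without these genes the cells marked as non-T cells went from 64.5% and 65.3% to 0.411% and 0.515% in WT. In KO they went from 32.3% and 25.5% to 0.191% and 0.157%. How many γδ T cells the wider filter removed was not tested. The call of Il17f was also lost by DESeq2. The wider filter enlarged other differences by over 1.5 times, to a log2 value of −1.46 for Bcl2l11, −1.81 for Ccr7, −3.41 for Ccr9, −2.62 for Cd24a, −2.54 for Gzma, −2.60 for Il6st, −3.28 for Scart2 and −3.72 for Themis.

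The stretch before the start of both genes is shown because they lie close together on chromosome 1 and responded so unequally. Both are the 250 bases before the annotated start, 5′ to 3′ on the strand of the gene, from RefSeq on GRCm38.p6; Il17a is at chr1:20730655-20730904 on the plus strand and Il17f at chr1:20784271-20784520 on the minus strand. Capitals mark the letters AATCAC, the core of the DNA motif that GFI1 is known to bind, or its reverse complement GTGATT.
Il17a: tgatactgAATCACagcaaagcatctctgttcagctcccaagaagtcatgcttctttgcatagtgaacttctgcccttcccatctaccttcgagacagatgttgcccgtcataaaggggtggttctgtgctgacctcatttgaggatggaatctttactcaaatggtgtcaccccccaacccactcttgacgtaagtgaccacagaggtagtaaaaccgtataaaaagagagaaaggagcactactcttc
Il17f: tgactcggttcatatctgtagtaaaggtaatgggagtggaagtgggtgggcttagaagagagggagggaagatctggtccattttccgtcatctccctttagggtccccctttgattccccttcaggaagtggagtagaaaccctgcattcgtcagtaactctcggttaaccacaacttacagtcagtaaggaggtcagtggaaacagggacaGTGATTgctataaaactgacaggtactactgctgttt

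Each of these stretches held 1 match, 242 bases before the start of Il17a and 37 bases before the start of Il17f. Over all RefSeq windows of 300 bases around a start, both strands searched, 3406 of 32851 held the motif (10.4%). Among the genes tested it was in the window of 9.44% of those called higher, 11.6% of those called lower and 9.94% of those not called. In the γδT17 list 3 of 22 windows held it (Il17a, Il17f and Ccr2), and in the immature list 3 of 15. A match is a run of letters and not a bound site.

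Maf, a factor that IL-17-committed cells need, measured 339 and 261 CPM in WT and 788 and 896 CPM in KO, a log2 difference of 1.61 (SE 0.26, adjusted p = 0.000706). Sox13, another factor of this fate, was not called, with 304 and 239 CPM in WT and 182 and 189.9 CPM in KO (log2 −0.42, SE 0.18, adjusted p = 0.0815). It was called in 5 of 19 alternatives, among them DESeq2 and the fits of the 4 libraries alone with the pool as a block (adjusted p = 0.0396) and without it. Blk, a Src-family kinase of IL-17-committed cells, rose from 238 ± 29.4 to 957 ± 60.5 CPM. Il1r1 and Il23r, the receptors through which such cells are driven, went from 41.2 and 38.8 CPM to 487 and 761 CPM and from 22.6 and 27.5 CPM to 401 and 719 CPM, with KO library 2 the higher one for both.

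The scavenger receptors Scart1 and Scart2, which mark γδ T cell subsets, moved in opposite directions. Scart1 measured 163 and 156 CPM in WT and 2254 and 2543 CPM in KO, a log2 difference of 4.04 (SE 0.15, adjusted p = 2.64e-07). Scart2 measured 341 and 274 CPM in WT and 84.3 and 56.4 CPM in KO, a log2 difference of −2.01 (SE 0.20, adjusted p = 3.33e-05). Groups did not overlap for either gene.

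**Figure D3:**
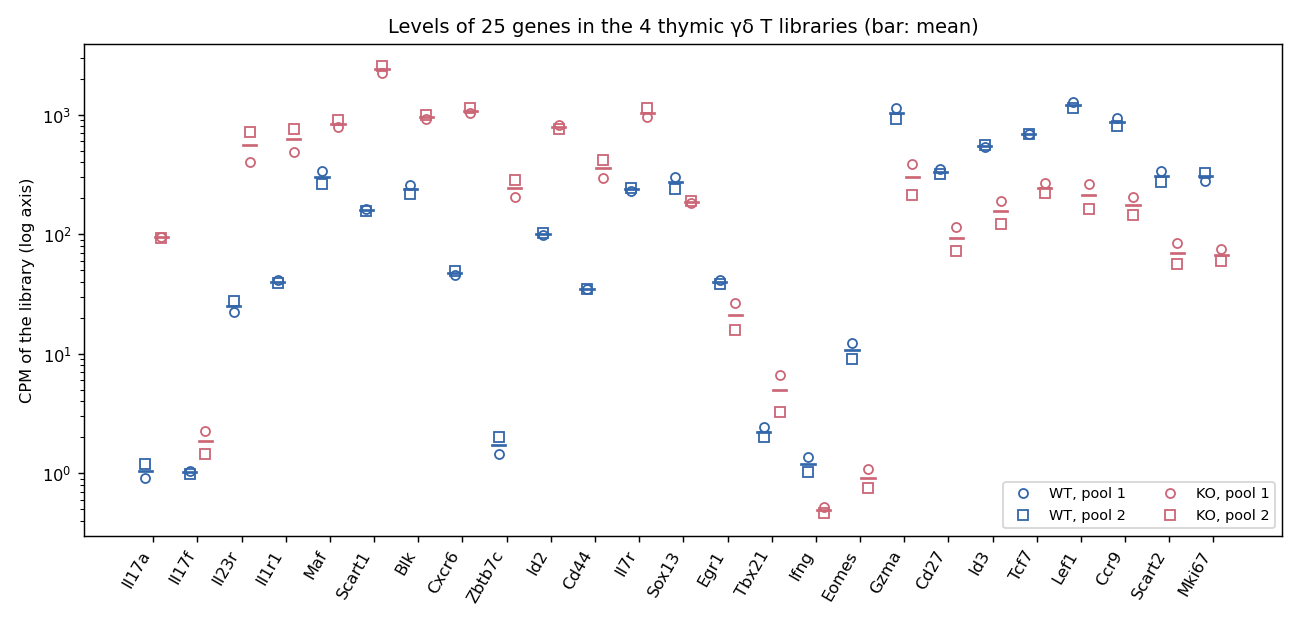
Level of 25 genes in CPM (vertical log axis) in the 4 thymic γδ T libraries, with circles for pool 1, squares for pool 2 and a bar at the mean of each group. For Il17a the KO points lie at 95.7 and 93.4 CPM above WT points at 0.916 and 1.19 CPM, while for Sox13 the groups lie close together.

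Receptors for cytokines rose more often than they fell. Of 42 genes of cytokine receptors and STAT feedback, 25 rose, 9 fell and 8 were not called, with a median log2 difference of 0.83. Il7r, the receptor for the survival factor IL-7, averaged 238 ± 11.7 CPM in WT and 1044 ± 121 CPM in KO, a log2 difference of 2.26 (SE 0.25, adjusted p = 6.91e-05). Il2ra, the inducible chain of the IL-2 receptor, measured 17.5 and 28.4 CPM in WT and 111 and 144 CPM in KO, a log2 difference of 2.60 (SE 0.25, adjusted p = 2.87e-05). Both chains of the IL-18 receptor rose, Il18r1 by 3.72 and Il18rap by 4.10 on the log2 scale. Socs2, a feedback inhibitor that STAT5 induces, went from 1.44 and 2.01 CPM to 45.1 and 48.5 CPM. Among the members that fell, Il21r went from 115 and 102 CPM to 35.9 and 27.4 CPM, and Il6st, the signal chain shared by IL-6 family receptors, from 105 and 90.7 CPM to 33.9 and 26.1 CPM. Il2rb, the chain through which γδT1 cells sense IL-15, averaged 98.6 ± 2.40 CPM in WT and 124 ± 1.43 CPM in KO and was not called (adjusted p = 0.13). It was called in 2 of 19 alternatives, the fits of the 4 libraries alone with the pool as a block (adjusted p = 0.00498) and without it.

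The γδT1 and cytotoxic list had 8 of 27 members higher, 8 lower and 11 not called (median log2 −0.18), beside 26.1% higher and 23.7% lower over all genes. Without KO library 1, WT library 1 or WT library 2 the members called higher were 5. Cd27, the receptor that sets γδT1 precursors apart, measured 352 and 317 CPM in WT and 115 and 72.1 CPM in KO, a log2 difference of −1.73 (SE 0.19, adjusted p = 6.59e-05). Eomes, a T-box factor, went from 12.4 and 9.11 CPM to 1.09 and 0.749 CPM, while its relative Tbx21 stood at 2.43 and 2.02 CPM in WT and 6.59 and 3.28 CPM in KO and was not called (adjusted p = 0.0623). Ifng was under 1.38 CPM in all 4 libraries and not called (adjusted p = 0.186). Both passed in the fits of the 4 libraries alone, with and without the pool as a block (blocked adjusted p of 0.0102 for Tbx21 and 0.027 for Ifng), and Tbx21 also by DESeq2. Gzma, a granzyme, measured 1142 and 926 CPM in WT and 387 and 213 CPM in KO (log2 −1.67, SE 0.32, adjusted p = 0.00182), and the pore-forming Prf1 went the other way, from 8.48 and 8.94 CPM to 29.3 and 34.2 CPM (log2 1.99, SE 0.30, adjusted p = 0.000424). Klrk1, which encodes the activating receptor NKG2D, rose from 7.67 and 8.01 CPM to 108 and 118 CPM. Klr genes resemble each other and may share reads.

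Of 34 NK-type and checkpoint receptors 15 rose, 10 fell and 9 were not called, with a median of 0.71. Havcr2, which encodes TIM-3, had 0.679 and 0.544 CPM in WT and 43.4 and 44.5 CPM in KO (log2 6.30, SE 0.38, adjusted p = 3.88e-06). The costimulator Cd28 fell from 202 and 201 CPM to 62.2 and 32.05 CPM, and the inhibitory receptor Btla from 37.6 and 38.2 CPM to 13.6 and 10.8 CPM.

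The IL-4 and PLZF list had 7 of 18 members higher, 7 lower and 4 not called (median log2 −0.65). Without KO library 1, WT library 1 or WT library 2 the members called higher were 4. Zbtb16 measured 83.1 and 75.2 CPM in WT and 408 and 349 CPM in KO, a log2 difference of 2.38 (SE 0.38, adjusted p = 0.000622). The study lists Zbtb16 as raised in splenic Trgv6+ cells of KO mice, and it also reports a large gain of Il4+ γδ T cells in KO thymus. Which thymic cells carried the rise of Zbtb16 was not tested. Icos, a costimulator that is also on the γδT17 list, rose from 38.5 and 37.7 CPM to 529 and 463 CPM. Il4 itself was 7.92 and 9.91 CPM in WT and 38.9 and 13.7 CPM in KO (log2 1.66, SE 0.52, adjusted p = 0.0225), with most of the excess in KO library 1. Without that library its log2 difference was 0.78 (adjusted p = 0.274), and the call was also lost without WT library 1 (adjusted p = 0.13) or WT library 2 (adjusted p = 0.0788), without cells with markers of other cell types (log2 0.69, adjusted p = 0.252) and with no filter on low counts. Slamf6 and Sh2d1a, a receptor of PLZF+ lymphocytes and its adaptor, fell from 90.4 and 93.2 to 40.8 and 21.4 CPM and from 305 and 320.4 to 132 and 76.2 CPM. Gata3, which controls IL-4 genes, fell from 309 and 273 CPM to 139 and 114 CPM.

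Genes of immature and recently made γδ thymocytes were lower without exception among the members tested: 22 of 22 fell, with a median log2 difference of −1.81. Cd24a, the surface marker of immaturity, measured 46.6 and 53.2 CPM in WT and 17.99 and 12.8 CPM in KO, a log2 difference of −1.58 (SE 0.32, adjusted p = 0.00251). Ccr9 measured 941 and 806 CPM in WT and 205 and 144 CPM in KO, a log2 difference of −2.21 (SE 0.17, adjusted p = 8.99e-06). Tcf7 went from 685 and 684 CPM to 268 and 223 CPM, Lef1 from 1267 and 1129 CPM to 264 and 163 CPM, and Sox4 from 449 and 394 CPM to 111 and 70.9 CPM. Both KO libraries were below both WT libraries for each of these genes, and KO library 2 was the lower one. Nrgn, a calmodulin-binding protein, had the largest difference of the list, from 262 and 225 CPM to 32.9 and 20.03 CPM (log2 −3.09, SE 0.21, adjusted p = 6.78e-06). Only 5 of the 22 passed the test among cells with Xist and no Y-linked UMI and 11 among cells with a Y-linked UMI and no Xist. All 22 were lower in both classes, with a median log2 difference of −1.59 in the first and −2.24 in the second.

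Genes of receptor rearrangement and the pre-TCR, which γδ thymocytes leave behind, followed, with 2 of 21 higher, 11 lower and 8 not called (median log2 −1.14). Dntt, which adds bases at the joints of rearranged segments, measured 122 and 142 CPM in WT and 30.8 and 19.5 CPM in KO, a log2 difference of −2.28 (SE 0.24, adjusted p = 4.79e-05). Rag1, the recombinase, was at 4.16 and 7.56 CPM in WT and 2.34 and 2.56 CPM in KO (log2 −1.14, SE 0.33, adjusted p = 0.0212). Without WT library 2 the Rag1 difference was −0.65 (adjusted p = 0.131), and it was also not called without KO library 1 (adjusted p = 0.128) or KO library 2 (adjusted p = 0.0846), without cells with markers of other cell types (log2 −1.80, adjusted p = 0.0513) and with no filter on low counts. The members that rose were Cd3e and the cytokine receptor chain Il2ra.

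Transcription factors of lymphoid fate had 19 of 55 higher, 25 lower and 11 not called (median log2 −0.18). Zbtb7c, a BTB zinc-finger factor, measured 1.44 and 2.01 CPM in WT and 205 and 284 CPM in KO, a log2 difference of 7.26 (SE 0.55, adjusted p = 8.99e-06). Id2, an inhibitor of E proteins, rose from 98.2 and 102 CPM to 824 and 759.6 CPM, while Id3, the inhibitor that strong TCR signals induce, fell from 542 and 556 CPM to 191 and 121 CPM. Tox2, an HMG-box factor, and Etv5, an ETS factor, fell by 2.80 and by 2.31 on the log2 scale, and Ikzf1, which encodes Ikaros, by 1.14. Runx3 was not called, with 174 and 167 CPM in WT and 206 and 196 CPM in KO (adjusted p = 0.155), but was called with the pool as a block (log2 0.36, adjusted p = 0.0332).

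Among the partners of GFI1 in repression, 4 of 18 genes rose, Gfi1 included, 7 fell and 7 were not called (median log2 −0.29). This stands beside 26.1% higher and 23.7% lower over all genes, and fewer members were called higher without WT library 2. Hdac1 measured 159.6 and 157 CPM in WT and 100.1 and 87.3 CPM in KO, a log2 difference of −0.64 (SE 0.09, adjusted p = 0.00031). Hdac2 and Hdac3 fell by 0.67 and by 0.53 on the log2 scale. Rcor1, which encodes CoREST, was not called, at 211 ± 5.41 CPM in WT and 166 ± 8.64 CPM in KO (adjusted p = 0.0776), but was called with the pool as a block (log2 −0.22, adjusted p = 0.0491).

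Genes that respond early to TCR signals had 8 of 27 higher, 11 lower and 8 not called (median log2 −0.70). This stands beside 26.1% higher and 23.7% lower over all genes, and fewer members were called lower without KO library 2 or WT library 1. Nr4a1, a direct reporter of TCR signal strength, measured 43.8 and 45.3 CPM in WT and 11.9 and 9.70 CPM in KO, a log2 difference of −1.92 (SE 0.15, adjusted p = 9.74e-06). The Egr genes, which set the γδ fate after strong signals, were lower in value, with adjusted p of 0.0762 for Egr1, 0.0519 for Egr2 and 0.448 for Egr3. With the pool as a block Egr2 was called (log2 −1.07, adjusted p = 0.0306), and so was Egr1 in the blocked fit of the 4 libraries alone (log2 −0.82, adjusted p = 0.00762). In all Egr1 was called in 4 of 19 alternatives, DESeq2 among them, and Egr2 in 8, among them DESeq2 and the fit without KO library 1 (log2 −1.62, adjusted p = 0.0129). The AP-1 gene Junb rose from 48.0 and 48.6 CPM to 142 and 199.97 CPM.

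The proximal signalling machinery had 8 of 34 genes higher, 15 lower and 11 not called (median log2 −0.16), beside 26.1% higher and 23.7% lower over all genes. Lck, the main Src kinase of T cells, measured 338 and 323 CPM in WT and 133 and 77.2 CPM in KO, a log2 difference of −1.54 (SE 0.19, adjusted p = 0.00012). Themis, an adaptor of thymocyte selection, fell from 807 and 882 CPM to 169 and 137 CPM (log2 −2.35, SE 0.12, adjusted p = 1.29e-06). Zap70, the kinase at the next step, rose from 80.4 and 72.6 CPM to 157 and 177 CPM, and the CD3 chains Cd3e and Cd3g rose by 0.85 and by 1.20 on the log2 scale. Cd247, the ζ chain, was not called, at 1063 and 921 CPM in WT and 1066 and 1093 CPM in KO (adjusted p = 0.0782).

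Cell cycle genes fell nearly as a block. Of 51 G2 and M phase genes 50 were lower and 1 was not called, with a median log2 difference of −1.83, and of 47 S phase genes 45 were lower and 2 not called, with a median of −1.45. Mki67, the proliferation antigen, measured 281 and 329 CPM in WT and 75.6 and 59.5 CPM in KO, a log2 difference of −2.05 (SE 0.22, adjusted p = 5.87e-05). Top2a, the topoisomerase of dividing cells, went from 468 and 572 CPM to 124 and 99.4 CPM, and Mcm5, a subunit of the replicative helicase, from 48.4 and 52.4 CPM to 16.3 and 15.4 CPM. Groups did not overlap for any of these 3 genes.

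Of 22 chemokine receptors 13 rose, 5 fell and 4 were not called, with a median log2 difference of 1.82. Cxcr6, which guides cells to liver and lung, measured 45.8 and 49.6 CPM in WT and 1029 and 1138 CPM in KO, a log2 difference of 4.63 (SE 0.42, adjusted p = 2.19e-05). Ccr2, a receptor for inflamed tissue, went from 23.2 and 28.4 CPM to 469.9 and 572 CPM, Ltb4r1, the leukotriene B4 receptor, from 2.19 and 3.15 CPM to 134 and 137 CPM, and Ccr6, the receptor of γδT17 cells, from 4.56 and 6.18 CPM to 16.1 and 25.6 CPM. Without cells with markers of other cell types Ccr6 was not called (log2 0.72 against 2.09, adjusted p = 0.194). That filter is the wider one described above, which removed more WT than KO cells and need not remove other cell types alone. Ccr7, which guides cells to lymph nodes, fell from 30.5 and 28.9 CPM to 16.3 and 10.6 CPM.

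Of 27 genes of egress, homing and integrins 12 rose, 6 fell and 9 were not called (median log2 0.24), beside 26.1% higher and 23.7% lower over all genes. Fewer members were called lower without KO library 2 or without WT library 2. Itgae, the integrin chain CD103 that binds E-cadherin on epithelium, measured 61.9 and 57.2 CPM in WT and 428 and 490.0 CPM in KO, a log2 difference of 3.07 (SE 0.31, adjusted p = 4.11e-05). Cd44, which effector cells carry, rose from 34.9 and 34.7 CPM to 295 and 420.4 CPM. S1pr1, the receptor that leads mature cells out of the thymus, stood at 50.1 and 64.4 CPM in WT and 39.7 and 22.7 CPM in KO and was not called (adjusted p = 0.0905). It was called, as lower, in 5 of 19 alternatives, among them DESeq2, the fits of the 4 libraries alone with the pool as a block (adjusted p = 0.0475) and without it, and the fit without cells with markers of other cell types (log2 −1.84, adjusted p = 0.000976).

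Interferon-stimulated genes tended upward, with 26 of 52 higher, 4 lower and 22 not called (median log2 0.53), and the members lower were 2 without KO library 2 or without WT library 2. Ifi213, a member of the interferon-induced Ifi200 family, measured 24.8 and 27.2 CPM in WT and 81.5 and 84.5 CPM in KO, a log2 difference of 1.80 (SE 0.32, adjusted p = 0.00126). Ly6a, which encodes Sca-1, rose from 49.0 and 72.4 CPM to 543 and 1021 CPM, with KO library 2 the higher one. The classic target Isg15 was not called, at 65.6 and 71.5 CPM in WT and 77.5 and 70.2 CPM in KO (adjusted p = 0.261), and Usp18, which dampens the interferon receptor, fell from 50.2 ± 0.405 to 20.6 ± 3.76 CPM. Ifi and Ly6 genes have close relatives and may share reads.

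Antigen presentation genes rose in 19 of 29 cases, fell in 4 and were not called in 6, with a median of 0.61. H2-K1, a class I heavy chain, measured 543 and 561 CPM in WT and 1797 and 1855 CPM in KO, a log2 difference of 1.85 (SE 0.14, adjusted p = 8.07e-06). H2-D1 went from 403 and 401 CPM to 1315 and 1266 CPM and their common light chain B2m from 1021 and 1091 CPM to 2014 and 2031 CPM. The class I genes share sequence with each other. H2-DMa, which loads class II molecules, fell from 31.0 and 30.6 CPM to 16.6 and 12.1 CPM.

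Of 38 apoptosis and p53 genes 18 rose, 7 fell and 13 were not called (median log2 0.33), and the members lower were 4 without KO library 2 or without WT library 2. Bcl2, the survival factor of naive lymphocytes, measured 505 and 461 CPM in WT and 134 and 101 CPM in KO, a log2 difference of −1.92 (SE 0.25, adjusted p = 0.000171). Its relatives Bcl2a1b and Bcl2a1d rose from 17.5 and 18.7 CPM to 304 and 339 CPM and from 6.50 and 8.37 CPM to 143 and 166 CPM, and these copies share reads. The killer protein gene Bcl2l11, which encodes BIM, fell from 39.0 and 37.8 CPM to 22.2 and 18.1 CPM.

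Of 31 gene entries under 30 symbols of glycolysis and pyruvate entry 7 rose, 11 fell and 13 were not called (median log2 0.02). This stands beside 26.1% higher and 23.7% lower over all genes, and fewer were called in either direction without WT library 2. Pfkp, a platelet-type phosphofructokinase, rose from 35.4 and 36.8 CPM to 99.6 and 120.5 CPM, and Ldhb, a lactate dehydrogenase chain, fell from 49.1 and 44.9 CPM to 9.09 and 5.91 CPM. The nuclear-encoded respiratory chain stood out by its lack of calls, with 2 of 76 higher and 10 lower, or 15.8% called against 49.7% over all genes. With the pool number as a block it had 4 higher and 28 lower, and without single libraries 2 to 5 lower and none higher, so this count depends on the fit. Of 39 genes of lipid uptake and fatty acid use 14 rose, 17 fell and 8 were not called (median log2 −0.21), and the members higher were 9 without WT library 1 or without WT library 2. Acsbg1, a long-chain acyl-CoA synthetase, rose from 5.18 and 5.53 CPM to 99.4 and 88.1 CPM, and Plin2, a coat protein of lipid droplets, from 18.4 and 18.3 CPM to 54.2 and 58.8 CPM.

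Of 32 actin, S100 and galectin genes 20 rose, 3 fell and 9 were not called, with a median log2 difference of 0.69. S100a6 measured 190.2 and 228 CPM in WT and 1618 and 2065 CPM in KO, a log2 difference of 3.27 (SE 0.34, adjusted p = 4.27e-05), and Capg, which caps actin filaments, rose from 35.2 and 35.1 CPM to 507 and 509 CPM. Crip1 fell from 1492 and 1503 CPM to 642 and 649 CPM. Genes best known from neurons and from cell adhesion had 9 of 36 higher, 10 lower and 17 not called (median log2 −0.03), near the 26.1% and 23.7% of all genes. Tmeff2, Fat3, Myo16 and Dlgap1 on one side and Angpt1 and Mctp1 on the other were among the 10 largest gains and losses named above.

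**Figure D4:**
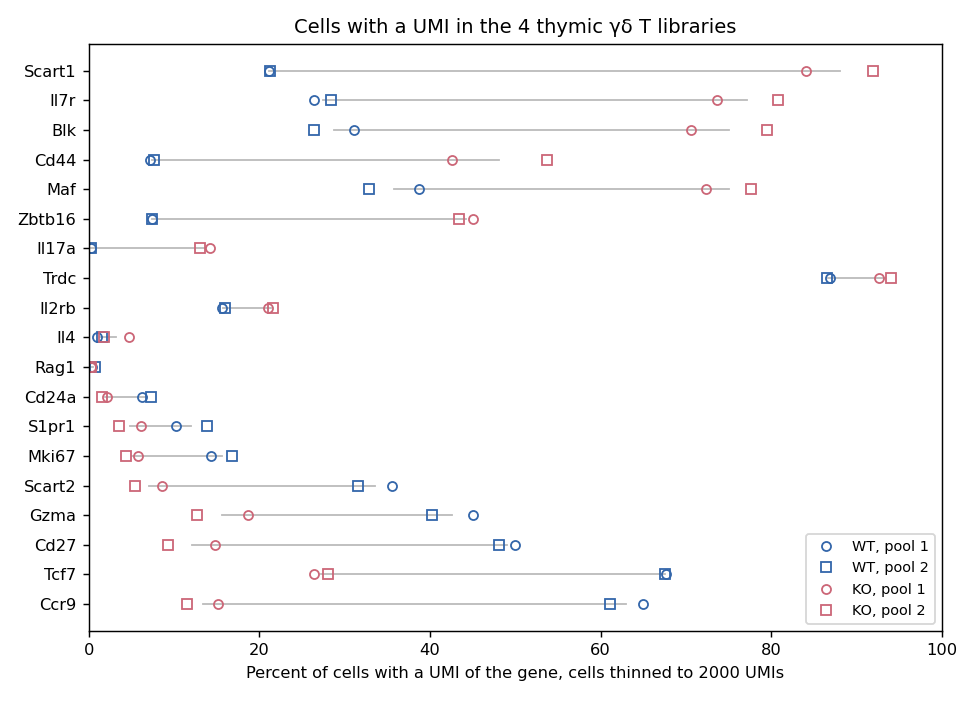
Percent of thymic γδ T cells with at least 1 UMI of each of 19 genes (horizontal axis) among cells of 2000 UMIs or more, each thinned to 2000, with 1 point per library and a grey line between the group means. Scart1 lies near 21.2% in WT and near 88.0% in KO on average, and Tcf7, Ccr9 and Cd27 lie to the left in KO.

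Shares of cells were compared after thinning to 2000 UMIs a cell. Cells with fewer UMIs were left out, which kept 6340 of 6817 and 7500 of 7968 cells in WT and 6321 of 6795 and 7155 of 7627 in KO. The share with a Scart1 UMI averaged 21.2% in WT and 88.0% in KO, with an Il7r UMI 27.4% and 77.2%, with a Blk UMI 28.8% and 75.0%, with a Maf UMI 35.8% and 75.0% and with a Zbtb16 UMI 7.44% and 44.2%. Il17a was seen in 0.249% of WT and 13.6% of KO cells. Shares went down for Ccr9, from 63.0% to 13.3%, for Tcf7, from 67.6% to 27.2%, for Cd27, from 49.0% to 12.1%, for Scart2, from 33.5% to 7.01%, and for Mki67, from 15.6% to 5.06%. Trdc, which every γδ T cell should carry, was seen in 86.7% of WT and 93.3% of KO cells at this depth. DN1-DN3 cells with at least 3 Ptcra UMIs, which came from other droplet runs, had Il17a in 0% and 0.113%, Zbtb16 in 0.365% and 1.91% and Maf in 1.78% and 10.3% of WT and KO cells. In the same cells the share with Scart1 was 3.49% in WT and 30.0% in KO, and that with Blk 3.89% and 12.96%. These shares are levels in another sort, and free RNA of the γδ T runs was not measured. For each of these genes both KO libraries lay on the same side of both WT libraries, and the smallest p of the exact test is 0.33.

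Scart1 and Cd24a were also read in the same cells. Cells with Scart1 and without Cd24a were 20.2% and 19.7% in WT and 82.8% and 90.9% in KO. Cells with Cd24a and without Scart1 were 5.30% and 5.83% in WT and 0.838% and 0.475% in KO. Cells with both were 0.962% and 1.45% in WT and 1.31% and 1.08% in KO, a share that overlapped between the groups. In KO these were 83 of the 136 and 77 of the 111 cells with Cd24a.

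Since so much of the KO compartment carried Trdv4, the comparison was repeated among cells with the same kind of δ call, a step added after the δ calls had been seen. Among Trdv4-called cells 4832 of 12004 genes differed (40.3%), with 20.7% higher and 19.6% lower. Where a call needed 2 UMIs of the segment, 50 and 66 WT cells were left of 178 and 244, and 1102 genes differed. Most WT calls thus rested on 1 UMI, in runs shared with KO cells rich in Trdv4, and how many of them were false was not tested. Among cells called for another δ segment, 2004 and 2214 in WT and 403 and 246 in KO, 1834 of 12042 differed (15.2%), with 8.84% higher and 6.39% lower. This count was 1094, 1021 and 957 without KO library 1, WT library 1 and WT library 2, 1007 by DESeq2 and 599 where a call needed 2 UMIs, and that of Trdv4-called cells was 3160 without WT library 2. The γδT17 list had 25 of 30 members higher and 1 lower in Trdv4-called cells (median log2 1.88, Trdv4 included, which chose these cells), and 15 of 28 higher and 1 lower in cells with another δ call (median 1.16). The immature list had 22 of 22 lower in Trdv4-called cells (median −3.34), and 9 of 22 lower with 2 higher in the others (median −0.31). G2 and M genes were lower at 47 of 51 in the first (median −2.45) and at 30 of 51 in the second (median −0.44).

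Named genes show what the counts stand for. In Trdv4-called cells Maf measured 419 and 387 CPM in WT and 1055 and 1049.5 CPM in KO, a log2 difference of 1.51 (SE 0.08, adjusted p = 3.76e-07). In cells with another δ call it measured 362 and 277 CPM in WT and 341 and 319 CPM in KO and was not called (log2 0.10, adjusted p = 0.689). Il17a went from 9.77 and 2.47 CPM to 154 and 118 CPM in Trdv4-called cells and stood at 0.709 and 1.04 CPM in WT and 1.41 and 3.29 CPM in KO in the others. Scart1 rose in both, by 2.15 in Trdv4-called cells and by 2.65 in the others on the log2 scale. Ccr9 fell from 687 and 648 CPM to 49.6 and 40.3 CPM in Trdv4-called cells and less in the others, where it went from 998 ± 98.7 to 707 ± 27.6 CPM (log2 −0.45, SE 0.08, adjusted p = 0.00175). Tcf7, Id3 and Cd24a fell in Trdv4-called cells by 2.08, 3.09 and 3.30 and were not called in the others, with adjusted p of 0.751, 0.836 and 0.227.

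The difference between these effects was tested directly, with both sums of each library in one fit, and 3012 of 12675 genes passed (23.8%), with a higher effect in Trdv4-called cells at 10.7% and a lower one at 13.1%. Without WT library 2 the count was 1784, by DESeq2 1765 and where a call needed 2 UMIs 585. The share of these calls that was higher was 45.1%, 33.7% by DESeq2 and 19.8% with 2 UMIs. Of the Trdv4-called cells with a call for Trgv1, Trgv2, Trgv4 or Trgv6, 9.85% and 12.4% had Trgv6 in WT. In KO 66.0% and 66.1% of them had it. The WT and KO cells called for Trdv4 were thus unlike in their γ chains, and the part of this in the differences below was not tested. Maf rose more in Trdv4-called cells by 1.43 (SE 0.11, adjusted p = 4.44e-08) and Cxcr6 by 1.65 (SE 0.23, adjusted p = 0.00435), both on the log2 scale. Where a call needed 2 UMIs the Maf difference was 0.71 (adjusted p = 0.00612). For Il17a the difference was 3.48 (SE 0.75, adjusted p = 0.00863), and it was not called by DESeq2 (adjusted p = 0.0648) or where a call needed 2 UMIs of the segment (log2 2.01, adjusted p = 0.413). The effect on Ccr9 was lower in Trdv4-called cells by a log2 value of −3.30 (SE 0.11, adjusted p = 1.59e-12), on Id3 by −3.02 and on Gzma by −3.01, the last being −1.29 (adjusted p = 0.00615) where a call needed 2 UMIs. Of the 30 γδT17 genes, among them Trdv4, which chose the cells, 17 had a higher and 2 a lower effect in Trdv4-called cells. Scart1 and Scart2 were the lower ones, and of the 22 immature genes 20 had a lower effect. The Scart1 difference, −0.47 (SE 0.12, adjusted p = 0.0125), was not called without KO library 2 (adjusted p = 0.0695) or without WT library 2 (adjusted p = 0.194), and was −1.89 (adjusted p = 3.55e-19) where a call needed 2 UMIs. Of the 52 interferon-stimulated genes 2 had a higher and 16 a lower effect. In cells with another δ call 34 of these 52 rose and none fell, against 19 higher and 10 lower in Trdv4-called cells.

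**Figure D5:**
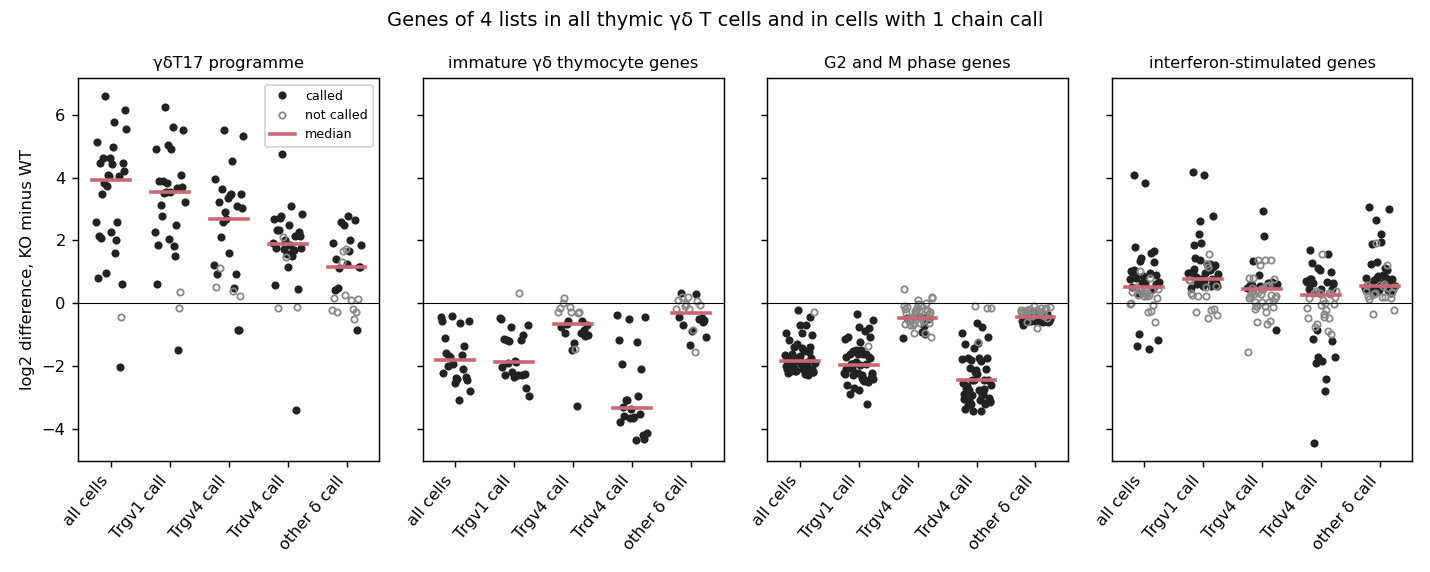
Log2 difference of KO minus WT (vertical axis) for the members of 4 gene lists, in all thymic γδ T cells and in cells called for Trgv1, Trgv4, Trdv4 or another δ segment, with 1 point per gene, filled where called, and a bar at the median. The immature genes lie near −3.34 at the median in Trdv4-called cells and near −0.31 in cells with another δ call.

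Calls by γ chain were compared in the same way. Among Trgv1-called cells, 720 and 887 in WT and 458 and 304 in KO, 3743 of 11274 genes differed (33.2%, 16.8% higher and 16.4% lower), although 1192 without WT library 1 and 1422 without WT library 2. By DESeq2 it was 2386. Among Trgv4-called cells, 331 and 376 in WT and 129 and 124 in KO, 1134 of 9555 differed (11.9%), with 7.89% higher and 3.98% lower. That count was 529 by DESeq2 and 339 where a call needed 2 UMIs. Trdv4 was called in 20 of the 720 and 23 of the 887 Trgv1-called cells in WT and in 102 of 458 and 155 of 304 in KO. Another δ segment was called in 214 and 237 of them in WT and in 50 and 13 in KO. Among Trgv4-called cells Trdv4 was called in 7 of the 331 and 8 of the 376 in WT and in 39 of 129 and 56 of 124 in KO. Another δ segment was called in 108 and 99 of these in WT and in 22 and 21 in KO. Of the cells with a δ call, most thus had Trdv4 in KO and few had it in WT. The part of Trdv4 in the results for both γ calls was not tested. The γδT17 list was higher at 25 of 28 genes in Trgv1-called cells (median log2 3.53) and at 21 of 27 in Trgv4-called cells (median 2.69). Il17a was among the top gains of both, from 0.792 and 0.596 CPM to 35.3 and 70.0 CPM in Trgv1-called cells (log2 6.24, SE 0.50, adjusted p = 0.000681) and from 1.25 and 0.716 CPM to 58.7 and 31.7 CPM in Trgv4-called cells (log2 5.51, SE 0.48, adjusted p = 1.18e-08). Zbtb16 rose by 2.06 and Il4 by 2.86 on the log2 scale in Trgv1-called cells, where Il4 went from 11.4 and 25.2 CPM to 152 and 97.7 CPM. Klra5, an NK receptor, had the largest gain of the genes named for Trgv1-called cells, from 0.792 and 0.119 CPM to 95.1 and 57.4 CPM, and Cdh10, a cadherin, that for Trgv4-called cells, from 2.91 and 2.15 CPM to 165 and 235 CPM. Angpt1 was lower in both, by a log2 value of −4.07 and −3.02. The immature list was lower at 21 of 22 genes in Trgv1-called cells and at 13 of 22 in Trgv4-called cells. The differences between Trgv1- and Trgv4-called cells were not tested.

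The KO effect in thymic γδ T cells was also set against that in splenic γδ T cells and in DN1-DN3 cells, with the difference tested in the same fit. That fit had no term for the mice that thymic γδ T and DN1-DN3 cells shared, so its p-values ignore this pairing. It differed from the splenic effect at 4410 genes (29.6%), 2373 higher (15.9%) and 2037 lower (13.7%), and from the DN1-DN3 effect at 3261 genes (21.9%), 1317 higher (8.83%) and 1944 lower. These counts were 2932 and 2637 for spleen without the thymic WT library 1 or 2, and for DN1-DN3 1898 and 1929 without those and 1887 without the thymic KO library 2. Of the thymic γδ T calls 5045 were also called in spleen, 4526 in the same direction and 519 in the opposite one, and 2486 were also called in DN1-DN3 cells, 2246 in the same direction and 240 in the opposite one. The 2 differences share the thymic γδ T libraries. The other sorts also differed by genotype in cells with at least 2 UMIs of Trac, Cd4 and Cd8b1 together. Such cells were 4.37% and 4.95% of the DN1-DN3 libraries in WT and 23.8% and 11.8% in KO. In spleen they were 21.5% and 18.6% in WT and 6.56% and 6.99% in KO. Their part in these differences was not tested.

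Maf rose less in thymic than in splenic γδ T cells, by 1.61 against 3.77 on the log2 scale (difference −2.16, SE 0.37, adjusted p = 0.00237). Il17a rose by 6.60 in thymic γδ T cells, 5.62 in splenic ones and 6.77 in DN1-DN3 cells, where its level was 0.0484 CPM in WT and 5.67 CPM in KO on average, and neither difference was called (adjusted p = 0.309 and 0.933). Trdv4 rose more in thymic γδ T cells than in spleen, by 2.22 (SE 0.18, adjusted p = 3.28e-05), and more than in DN1-DN3 cells, by 3.56 (SE 0.46, adjusted p = 0.00076). Ccr6 rose in thymic γδ T cells and fell by 2.43 in spleen (difference 4.51, SE 0.67, adjusted p = 0.00109).

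By list, the cell cycle genes had a lower effect than in both other compartments. G2 and M genes had a lower effect in thymic γδ T cells at 33 of 51 genes against spleen and at 45 of 51 against DN1-DN3, and S phase genes at 36 and at 30 of 47. Mki67 went from 22.6 to 28.8 CPM in spleen and from 309.7 to 205 CPM in DN1-DN3 cells on average, and its effect in thymic γδ T cells was lower by −2.51 (SE 0.31, adjusted p = 0.000431) and by −1.46 (SE 0.31, adjusted p = 0.00862). Interferon-stimulated genes had a higher effect than in spleen at 47 of 52 genes, with a median difference of 2.10. Against DN1-DN3 they had a higher effect at 2 and a lower one at 9. List counts against DN1-DN3 stand beside 1317 genes higher and 1944 lower of all 14921. The 9 of 52 lie near that lower share, so they say little about interferon-stimulated genes. The immature list had a higher effect than in spleen at 13 of 22 genes, where for instance Tcf7 fell by 3.75, and a lower effect than in DN1-DN3 at 16 of 22, where Tcf7 was not called (adjusted p = 0.0574). The γδT1 list had a higher effect than in spleen at 19 of 27 genes and a lower one than in DN1-DN3 at 16 of 27. S1pr1 gave one of the largest contrasts with DN1-DN3 cells, in which it rose from 1.09 to 16.4 CPM on average (difference −4.65, SE 0.55, adjusted p = 0.000605).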

How the data were processed

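Thymic γδ T, splenic γδ T and DN1-DN3 cells of WT and KO mice had been hashed, pooled by compartment, and run on Chromium 3′ chips. The authors aligned the reads with Cell Ranger 8.0.1 to GRCm39, per the submitters' processing notes, and deposited raw UMI counts per cell for 33696 genes and 2 hashtags, already divided into 12 libraries by hashtag. Genotype was taken from the hashtag that the labels give. Cells with at least 500 UMIs and at most 20% mitochondrial counts were kept, and 96911 of 97404 barcodes passed; the authors had divided the pools with hashsolo, which also looks for cells with both tags, and no further doublet caller was run. Counts were summed per library, and 9538 ribosomal, Gm-number and mitochondrial genes were left out by name, as in the study. One fit of 12 libraries (edgeR 4.0.16, TMM, filterByExpr, robust quasi-likelihood F test, R 4.3.3) covered 14921 genes, with Benjamini-Hochberg adjustment and a threshold of 0.05. The SE of a log2 difference is its size divided by the square root of F. CPM are relative to all UMIs of a library, and errors are SD over 2 libraries. Gene positions of GRCm39 were not used here. Promoter windows (250 bases before to 50 after a start) came from RefSeq on GRCm38.p6.

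Libraries of the same number shared a pool per the labels, and their deviations from the group means correlated at 0.0609 in thymic γδ T cells, 0.266 in spleen and 0.154 in DN1-DN3 cells. The study's methods give no block, so the main fit has none, and a fit with the pool as a block was an alternative. Other alternatives were DESeq2 1.42.0, other size factors, filters on cells and genes, thinning to equal depth, and leaving out each library.

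The members and lists were chosen with earlier results of these data known. Genes were named by rule: core genes of each list, up to 3 called members of a list in each direction with the largest difference at a mean of at least 20 CPM, the 10 called genes in each direction with the largest log2 difference at a mean of at least 20 CPM and one direction in both pools, the 10 largest by CPM, and the 5 largest of each difference between compartments or each chain call at 20 CPM. The fits were also run on simulated data, and the outcome is not given here. Some genes are not reported here.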

Additional observations from a re-analysis of the deposited data

Results flagged for a closer look

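The KO effect differed between compartments by the interaction term at 4410 genes against spleen and at 3261 genes against DN1-DN3 cells. The genes below are the 5 largest in each direction among those with a mean of at least 20 CPM in thymic γδ T cells, and each value is the thymic γδ T effect minus the other effect on the log2 scale.

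Against spleen the effect was higher for A330093E20Rik by 7.40 (adjusted p = 0.00115), for Ralyl by 7.14 (adjusted p = 0.000828), for Setbp1 by 6.14 (adjusted p = 0.000522), for the Rac regulator Chn2 by 5.90 (adjusted p = 0.000417) and for Apol7b by 5.32 (adjusted p = 0.000846). Without cells with markers of other cell types A330093E20Rik was not called (4.66, adjusted p = 0.0762). It was lower for the cell cycle factor E2f2, with a difference of −4.19 (adjusted p = 1.55e-05), for Spats2 of −4.11 (adjusted p = 1.79e-05), for the Rap regulator Rap1gap2 of −3.87 (adjusted p = 3.1e-05), for the glycosyltransferase Galnt3 of −3.81 (adjusted p = 1.49e-05) and for 1500009L16Rik of −3.66 (adjusted p = 0.000162).

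Against DN1-DN3 cells it was higher for Rnf150 by 6.84 (adjusted p = 0.000275), for the synaptic scaffold gene Dlgap1 by 6.38 (adjusted p = 2.6e-05), for Rnf17 by 5.998 (adjusted p = 0.000472), for Fat3 by 5.68 (adjusted p = 0.000837) and for Hacd4 by 4.58 (adjusted p = 1.12e-05). It was lower for the ATP-gated channel P2rx7, with a difference of −5.23 (adjusted p = 4.58e-06), for S1pr1 of −4.65 (adjusted p = 0.000605), for Hmga2 of −4.30 (adjusted p = 0.000501), for B630019A10Rik of −4.27 (adjusted p = 0.00026) and for the chemokine Ccl5 of −4.26 (adjusted p = 6.49e-05). Without cells with markers of other cell types Fat3 (3.19, adjusted p = 0.35) and Hmga2 (−3.58, adjusted p = 0.0637) were not called, and with the narrower list of markers Hmga2 was at −2.56 (adjusted p = 0.0266).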

How the results depend on the processing

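Of 93 recomputed counts of calls 70 lay within 1.5 times the main count, and so did 808 of 912 counts of list members. The 7423 calls between KO and WT fell to 2570 among cells with Xist and no Y-linked UMI and 4533 among cells with a Y-linked UMI and no Xist, both chosen after seeing the data, and the cause was not tested. Without 1 library they were 5450 to 6403. The difference from spleen (4410) was 2352 without cells with markers of other cell types, which removed more WT than KO cells, and 2637 to 3605 without 1 library. That from DN1-DN3 (3261) was 1887 to 3209 without 1 library. DESeq2 gave 2386 calls for Trgv1-called cells (3743), 529 for Trgv4-called cells (1134), 1007 for cells with another δ call (1834) and 1765 for the difference of the δ effects (3012). Where a chain call needed 2 UMIs, with fewer cells, the counts were 339 for Trgv4, 1102 for Trdv4, 599 for another δ segment and 585 for the difference. Without 1 library they were 1192 to 4477 for Trgv1, 767 to 1048 for Trgv4, 3160 to 4514 for Trdv4, 957 to 1806 for another δ segment and 1784 to 2597 for the difference. One named gene changed direction: Il17f had a log2 difference of −0.51 without cells with markers of other cell types, and 0.98 with the narrower list of markers. With that narrower list the difference from spleen was called at 4438 genes and that from DN1-DN3 at 3666.

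With the pool as a replicate block 8020 genes were called between KO and WT, 5243 against spleen and 3772 against DN1-DN3, all within 1.5 times the main counts, and of the lists the respiratory chain moved by over 1.5 times. Of the named genes it added calls at Egr2, Mcl1, Rcor1 and Runx3. The 120 recomputed shares of cells kept their direction. With 2 libraries a group, genes near 1 CPM such as Il17f rest on few UMIs, and whether the libraries are separate animals is not stated.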
